A study of Mus musculus with 6 samples.

Results

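The 10 genes described here, Cd36, Cd9, Cd1d1, Plac8, Tm6sf1, Cd5, Spn, Zbtb32, Mfge8 and Zcwpw1, are markers of marginal zone and B1 B cells, chosen by name from the 22098 gene names of the RPKM table. Each gene was read from its transcript of highest mean RPKM. RPKM (reads scaled to transcript length and to the size of the library) is a level per transcript length, so levels can be compared between genes. All 10 had a mean of at least 1 RPKM over the libraries and so were among the 10322 genes tested. The poly(A) RNA came from IgM-positive B cells, sorted out of the marrow of C57BL/6 animals that were 6 weeks old. The groups were Ikaros_ZnF1-/- mice, which lack zinc finger 1 of Ikaros (ZnF1 mutant), Ikaros_ZnF4-/- mice, which lack zinc finger 4 (ZnF4 mutant), and wild-type mice, with 2 libraries each. The labels name no Cre driver or promoter and do not say whether a library held 1 animal or several. A p-value here therefore reflects the spread between these libraries. In each mutant 1 library had RNA of Xist, which female cells make, and the other had none. The spread of each mutant pair thus includes a difference between animals and in sex. Both wild-type libraries had Xist, and their spread may be technical.

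Marginal zone B cells sit at the edge of the splenic follicle, depend on Notch2 signalling and respond fast to blood-borne antigen. B1 cells are the self-renewing B cells of the body cavities, and their B1a subset carries CD5. Both types are innate-like and are not formed in number in the marrow, where IgM-positive cells are mostly immature and recirculating follicular B cells. Ikaros is a DNA-binding regulator of lymphocyte development, and its sites share the core GGGAA. The form TGGGAA is also the core of sites of RBPJ, the DNA-binding partner of Notch, which are often longer (GTGGGAA).

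B cell markers were abundant in all libraries. Levels of Cd79a, needed for antigen receptor signalling in B cells, ranged from 578.1 to 860.7 RPKM. Those of Ms4a1, the gene of CD20, ranged from 834.6 to 1132.6 RPKM. The 8 T cell markers summed to between 112.4 and 180.1 RPKM, mostly from Cd2 (94.3 to 156.7 RPKM) and Lck (11.2 to 19.9 RPKM), while Cd3e lay between 0.2 and 0.7 RPKM. ZnF1 replicate 2 stood apart. The 12 granulocyte and monocyte markers summed to 1482 and 7909 RPKM in ZnF1 replicates 1 and 2, to 1845 and 2024 RPKM in the ZnF4 mutant, and to 479 and 748 RPKM in wild type, with none of the 12 at 0 throughout. The 8 erythroid markers summed to 85.5 and 585 RPKM in ZnF1 replicates 1 and 2, to 148 and 216 RPKM in the ZnF4 mutant, and to 134 and 148 RPKM in wild type. Sex differed between libraries: Xist, which female cells make, had 0 RPKM in ZnF1 replicate 2 and ZnF4 replicate 2, and at least 39.6 RPKM in the other 4. Ikzf1, the gene of Ikaros, was at 201.1 and 168.4 RPKM in the ZnF1 mutant, 287.3 and 244 RPKM in the ZnF4 mutant, and 176.5 and 178.6 RPKM in wild type, a value over the whole transcript that does not check the loss of 1 finger.

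Promoters of Cd36 and Plac8, which differed between genotypes below, and of Cd9, which holds the longer GTGGGAA, are shown so that the GGGAA core can be seen in its surroundings. RefSeq windows (GRCm38.p6, from 250 bases before to 50 bases after a start, in the direction of the gene) were at hand for 8 of the 10 genes, and not for Cd1d1 and Tm6sf1. Each sequence runs 5′ to 3′ on the minus strand, and capitals mark GGGAA or its reverse complement TTCCC. Cd36 lies at chr5:17835847-17836146, Plac8 has a start at chr5:100572156-100572455 and a further one at chr5:100563047-100563346, and Cd9 lies at chr6:125494711-125495010.
Cd36: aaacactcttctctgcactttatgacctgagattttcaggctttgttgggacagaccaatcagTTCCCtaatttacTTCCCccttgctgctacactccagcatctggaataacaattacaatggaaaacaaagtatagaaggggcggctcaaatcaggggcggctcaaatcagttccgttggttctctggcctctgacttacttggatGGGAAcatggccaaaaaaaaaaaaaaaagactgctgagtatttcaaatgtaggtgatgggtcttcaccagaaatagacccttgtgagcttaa
Plac8: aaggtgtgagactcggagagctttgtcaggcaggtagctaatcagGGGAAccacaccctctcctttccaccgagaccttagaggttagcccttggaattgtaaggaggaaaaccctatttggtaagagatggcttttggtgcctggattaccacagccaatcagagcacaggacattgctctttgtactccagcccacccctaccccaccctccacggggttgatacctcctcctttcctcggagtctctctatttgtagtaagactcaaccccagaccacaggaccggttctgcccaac
Plac8, further start: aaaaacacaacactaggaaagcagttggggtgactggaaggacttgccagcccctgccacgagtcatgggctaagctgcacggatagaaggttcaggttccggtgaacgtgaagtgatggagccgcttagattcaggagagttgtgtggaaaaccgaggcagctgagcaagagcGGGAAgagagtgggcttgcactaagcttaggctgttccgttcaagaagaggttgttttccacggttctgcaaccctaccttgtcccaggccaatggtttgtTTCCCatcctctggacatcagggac
Cd9: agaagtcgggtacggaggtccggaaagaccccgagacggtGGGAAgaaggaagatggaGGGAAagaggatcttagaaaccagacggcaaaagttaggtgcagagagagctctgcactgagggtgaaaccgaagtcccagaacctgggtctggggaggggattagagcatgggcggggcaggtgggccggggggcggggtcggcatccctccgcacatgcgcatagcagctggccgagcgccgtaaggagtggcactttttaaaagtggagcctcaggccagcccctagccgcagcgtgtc

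In Cd36 the marked runs began 187, 174 and 42 bases before the start, and the last is preceded by T, giving TGGGAA. Plac8 had a run 205 bases before the upstream start, and at the further start a run 76 bases before it and TTCCCA, the reverse complement of TGGGAA, at position 26. Cd9 had runs 210 and 192 bases before the start, the first within GTGGGAA. Counting either strand, GGGAA was in at least 1 window of 8 of the 8 genes, against 65.5% of all 27025 genes with windows. TGGGAA was in 5 of 8 (Cd36, Cd5, Cd9, Mfge8 and Plac8), against 28.3% of all genes. GTGGGAA, which contains TGGGAA, was in 2 of 8 (Cd9 and Mfge8), against 7.25%. These are letters in a window, and no binding was measured here.

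Cd36 rose in the ZnF4 mutant and Tm6sf1 fell, and none of the other 8 members passed in either mutant against wild type. Called genes had an adjusted p under 0.05 by limma with Benjamini-Hochberg adjustment over all tested genes, on the scale log2(RPKM + 0.5). In the ZnF4 mutant, 1 member was higher, against 1.78% of all tested genes, and 1 was lower, against 1.41%. The share called in either direction was 3.2%. In the ZnF1 mutant, limma called 0 of the 10, against 0.271% of all tested genes. There 1 member (Cd36) had an unadjusted p under 0.05, as did 1232 of the 10322 tested genes. Between the mutants, 3 members differed, against 4.78% of all tested genes. An unadjusted p under 0.05 was found there for 7 members and for 2064 of the 10322 tested genes. The members' median log2 fold change was 0.05 for ZnF1 over wild type, where that of all tested genes was 0.00, and 0.34 for ZnF4 over wild type, where that of all tested genes was -0.02. Both mutants share the same wild-type libraries, so their fold changes are not independent of each other.

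**Figure D1:**
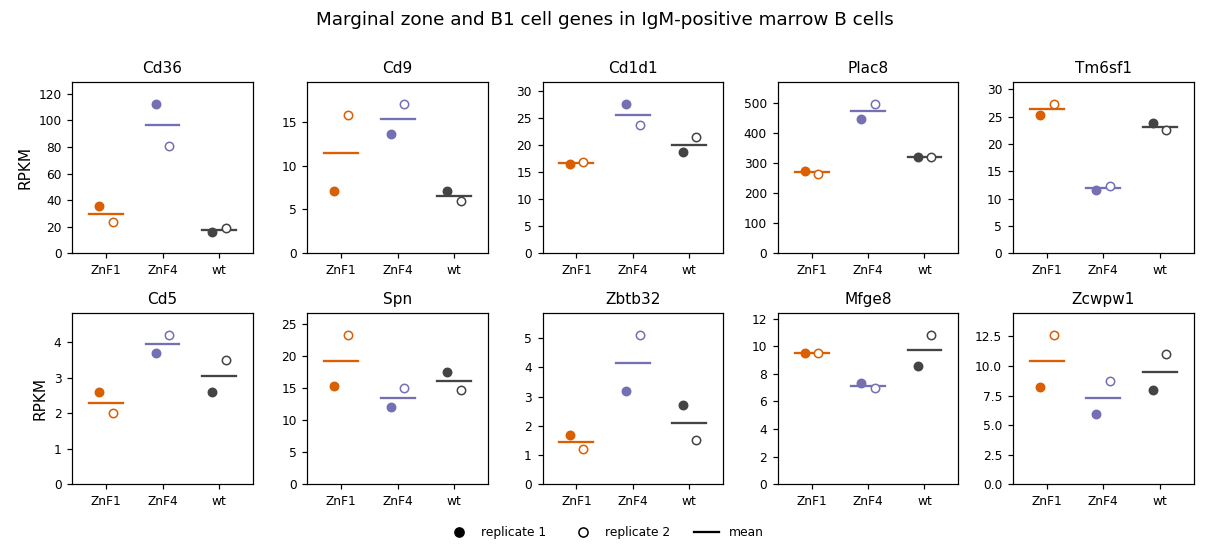
RPKM of each of the 10 genes (vertical axes, linear from 0) in the 2 libraries of the ZnF1 mutant, the ZnF4 mutant and wild type (wt), with filled points for replicate 1, open points for replicate 2 and a line at the mean. Cd36 stands at 112.3 and 81.1 RPKM in the ZnF4 mutant, above all other libraries, and Tm6sf1 stands at 11.5 and 12.3 RPKM there, below all others.

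**Figure D2:**
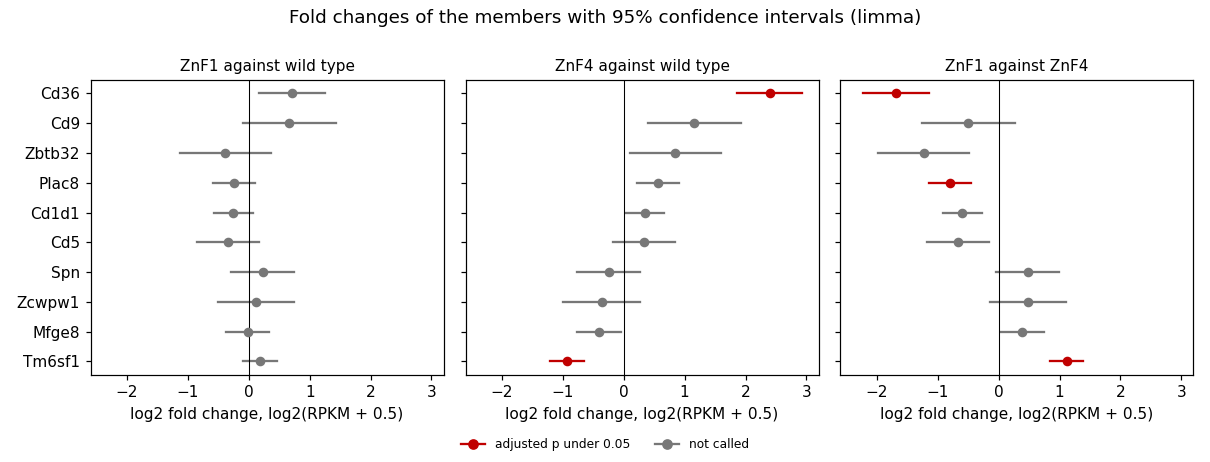
Log2 fold changes (points) with 95% confidence intervals (bars) of the 10 genes in the 3 comparisons, on the log2(RPKM + 0.5) scale, with called genes in red. Cd36 and Tm6sf1 are called in the ZnF4 mutant, and Cd36, Plac8 and Tm6sf1 are called between the mutants.

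Cd36 showed the widest range of genotype means of all members. CD36 is a scavenger receptor that binds oxidised lipoproteins and long-chain fatty acids, and marginal zone B cells carry more of it than follicular cells do. It was at 35.8 and 23.9 RPKM in the ZnF1 mutant, 112.3 and 81.1 RPKM in the ZnF4 mutant, and 16.2 and 19.4 RPKM in wild type. The 3 genotypes did not overlap, with the ZnF4 mutant highest and wild type lowest. The log2 fold change in the ZnF4 mutant was 2.40 (SE 0.23, 95% interval 1.86 to 2.93, adjusted p = 0.00549 by limma), a ratio of mean levels of 5.43. Of the 10322 genes, it had the 18th smallest p in that comparison. In the ZnF1 mutant the log2 fold change was 0.71 (95% interval 0.17 to 1.25, adjusted p = 0.28 by limma) and did not pass. The direct comparison, ZnF1 over ZnF4, gave -1.69 (SE 0.23, adjusted p = 0.00986 by limma). In RNA of sorted cell pools, a change in the number of cells that express a gene and a change in RNA per cell cannot be told apart.

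The call of Cd36 in the ZnF4 mutant needed every ZnF4 and wild-type library. Without wild-type replicate 1 or 2, or ZnF4 replicate 1 or 2, its log2 fold change was 2.27, 2.52, 2.16 and 2.63, and the adjusted p by limma was 0.0643, 0.065, 0.113 and 0.1, so it was not called. Without either ZnF1 library it was called (adjusted p = 0.00179 and 0.00171 by limma). The loss was not particular to Cd36: of all tested genes, limma called 0 without ZnF4 replicate 1 and 0 without ZnF4 replicate 2 (1551 and 1219 at an unadjusted p under 0.05), and 11 and 3 without wild-type replicate 1 and 2.

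Monocytes, macrophages, platelets and erythroid precursors also carry CD36. The granulocyte and monocyte sum was higher in both ZnF4 libraries (1845 and 2024 RPKM) than in wild type (479 and 748 RPKM), as Cd36 was. By limma, 0 of its 11 tested genes were called there, against 3.2% of all tested genes. Of the 11, 5 had an unadjusted p under 0.05, as did 1800 of the 10322 tested genes. Their median log2 fold change was 1.61. The library richest in granulocyte, monocyte and erythroid RNA, ZnF1 replicate 2, had 23.9 RPKM of Cd36, and ZnF1 replicate 1 had 35.8 RPKM. The 8 macrophage markers summed to 44.8 and 35.1 RPKM in the ZnF1 mutant, 28 and 16 RPKM in the ZnF4 mutant, and 34 and 10.2 RPKM in wild type. The 8 megakaryocyte markers summed to at most 4.1 RPKM in any library, and Gp6, a platelet collagen receptor gene, was listed at 0 in all of them. The part of these cell types in the rise of Cd36 was not tested.

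**Figure D3:**
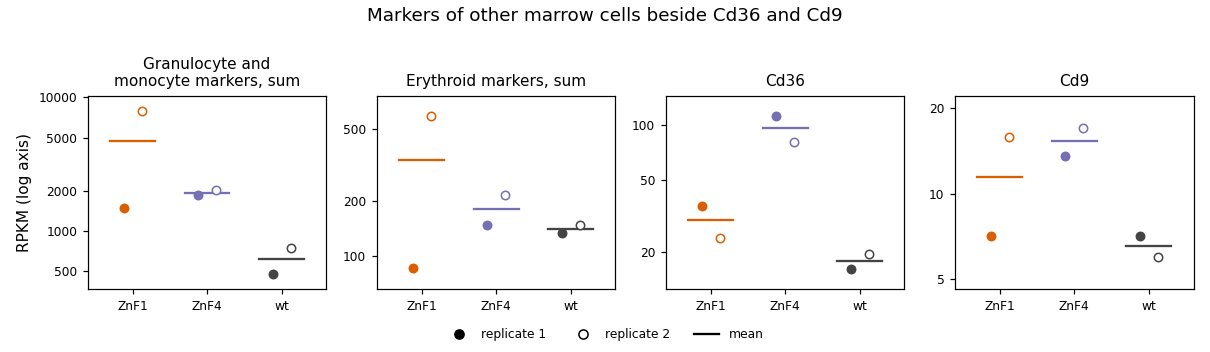
Summed RPKM of 12 granulocyte and monocyte markers and of 8 erythroid markers, beside the RPKM of Cd36 and Cd9 (all axes logarithmic), in the ZnF1 mutant, the ZnF4 mutant and wild type (wt), with filled points for replicate 1, open points for replicate 2 and a line at the mean. ZnF1 replicate 2 is the highest library for both marker sums, at 7909 and 585 RPKM, while Cd36 is at 23.9 RPKM and Cd9 at 15.8 RPKM in it.

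The table lists 4 transcripts of Cd36. The one used here (NM_001159555, 3554 bases) held between 85.5% and 89.7% of the gene's summed RPKM in each library. The next (NM_001159556, 3414 bases) was at 4.2 and 2.9 RPKM in the ZnF1 mutant, 12.4 and 10.2 RPKM in the ZnF4 mutant, and 2.1 and 3.1 RPKM in wild type, a ratio of mean levels of 4.35 for the ZnF4 mutant over wild type. It held between 9.9% and 13.7% of the gene's RPKM, so both transcripts were higher in the ZnF4 mutant. In the GENCODE M21 annotation they have 15 exons each, of which 13 are identical, so most reads fit both, and the sources used here do not say how such reads were divided. The longest transcript (3582 bases) was listed at 0 in all libraries.

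Cd1d1 encodes the CD1d molecule, which presents lipid antigens to natural killer T cells and is abundant on marginal zone B cells. It was at 16.6 and 16.9 RPKM in the ZnF1 mutant, 27.6 and 23.7 RPKM in the ZnF4 mutant, and 18.7 and 21.5 RPKM in wild type. No 2 genotypes overlapped, and wild type lay between the mutants. No comparison passed. Its change on the log2 scale was -0.25 in ZnF1 mutants (95% interval -0.57 to 0.06, adjusted p = 0.533 by limma) and 0.34 in the ZnF4 mutant (95% interval 0.03 to 0.66, adjusted p = 0.245 by limma). The direct comparison, ZnF1 over ZnF4, gave -0.60 (95% interval -0.91 to -0.28, adjusted p = 0.0535 by limma).

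Cd9 encodes a tetraspanin, a membrane organiser found on marginal zone B cells, B1 cells and plasma cells. It was at 7.1 and 15.8 RPKM in the ZnF1 mutant, 13.6 and 17.0 RPKM in the ZnF4 mutant, and 7.1 and 6.0 RPKM in wild type. The ZnF4 libraries lay above wild type, and the ZnF1 libraries fell apart, with replicate 1 at the wild-type level and replicate 2 among the ZnF4 libraries. On the log2 scale it differed from wild type by 0.66 in ZnF1 mutants (95% interval -0.10 to 1.43, adjusted p = 0.499 by limma) and 1.16 in the ZnF4 mutant (SE 0.33, 95% interval 0.39 to 1.93, adjusted p = 0.121 by limma), and neither passed.

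The spread of the ZnF1 pair entered the test of Cd9 in the ZnF4 mutant. In a fit of only the ZnF4 and wild-type libraries, the same fold change was called (adjusted p = 0.00979 by limma). Cd9 was not called there with a replicate block, quantile normalization or no filter (adjusted p = 0.0988, 0.148 and 0.235 by limma). With a term for sex its log2 fold change was 0.81 and not called (adjusted p = 0.206 by limma). Leaving out ZnF1 replicate 1 or 2 kept the log2 fold change at 1.16, as neither library enters that difference and only the spread can move. Leaving out ZnF4 replicate 1 or 2, or wild-type replicate 1 or 2, gave 1.316, 1.004, 1.273 and 1.047. Without ZnF1 replicate 1, the log2 fold change in the ZnF1 mutant was 1.21 (adjusted p = 0.0157 by limma), and without ZnF1 replicate 2 it was 0.11 (adjusted p = 0.998). Megakaryocytes and some myeloid cells carry CD9, and the ZnF1 library with the higher Cd9 was the one with the higher granulocyte, monocyte and erythroid sums. In the ZnF4 mutant both Cd9 and the granulocyte and monocyte sum were above wild type. The part of those cells in the level of Cd9 was not tested.

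Plac8, which encodes a small cysteine-rich protein of lymphoid and myeloid cells, had the highest level of the 10 genes in each of the 3 genotypes. It was at 274.1 and 264.8 RPKM in the ZnF1 mutant, 447.4 and 495.4 RPKM in the ZnF4 mutant, and 321.1 and 319.8 RPKM in wild type, above 99.2%, 99.6% and 99.4% of tested genes by genotype mean. The replicates lay close together and the 3 genotypes did not overlap. Between the mutants Plac8 differed, with the ZnF1 libraries lower (log2 fold change -0.80, SE 0.15, adjusted p = 0.0269 by limma), a ratio of mean levels of 0.572. Against wild type neither mutant passed: the log2 fold change was -0.25 in ZnF1 mutants (95% interval -0.59 to 0.10, adjusted p = 0.575 by limma) and 0.55 in the ZnF4 mutant (95% interval 0.21 to 0.90, adjusted p = 0.105 by limma).

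The call of Plac8 between the mutants was lost when any 1 of the 6 libraries was left out (adjusted p between 0.0546 and 0.164 by limma), although the log2 fold change stayed between -0.88 and -0.73. It was also lost without a filter (adjusted p = 0.0549), in a fit of only the mutants (0.0841), with a replicate block (0.051) and with a term for sex (0.0543). With quantile normalization Plac8 was called in the ZnF4 mutant (log2 fold change 0.57, adjusted p = 0.044 by limma). Granulocytes express Plac8 as well, and the library with the highest granulocyte and monocyte sum, ZnF1 replicate 2, had 264.8 RPKM of Plac8. In the ZnF4 mutant both Plac8 and that sum were above wild type. The part of those cells in the level of Plac8 was not tested.

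Tm6sf1, a gene of a multi-pass membrane protein, was the only member called lower in the ZnF4 mutant. It was at 25.4 and 27.3 RPKM in the ZnF1 mutant, 11.5 and 12.3 RPKM in the ZnF4 mutant, and 23.9 and 22.5 RPKM in wild type. The ZnF4 libraries lay far below the other 4, and the ZnF1 libraries lay just above wild type. The log2 fold change in the ZnF4 mutant was -0.93 (SE 0.12, 95% interval -1.21 to -0.66, adjusted p = 0.0098 by limma), a ratio of mean levels of 0.513. In the ZnF1 mutant it was 0.18 (95% interval -0.10 to 0.46, adjusted p = 0.622 by limma), and the direct comparison, ZnF1 over ZnF4, gave 1.11 (SE 0.12, adjusted p = 0.00407 by limma).

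Without wild-type replicate 1 or 2, or ZnF4 replicate 1 or 2, the log2 fold change of Tm6sf1 in the ZnF4 mutant was -0.89, -0.98, -0.89 and -0.98, and it was not called (adjusted p = 0.109, 0.0939, 0.123 and 0.11 by limma). The direct comparison was not called without ZnF4 replicate 1 or 2 (log2 fold change 1.07 and 1.16, adjusted p = 0.0902 and 0.0737 by limma). For Cd36, the direct comparison was not called without ZnF4 replicate 1 or 2 either (log2 fold change -1.46 and -1.92, adjusted p = 0.143 and 0.0845 by limma), nor without a filter on low values (adjusted p = 0.0633).

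The B1 markers were at low to middling levels and none passed. Cd5 encodes a receptor on T cells and B1a cells that restrains antigen receptor signalling. It was at 2.6 and 2.0 RPKM in the ZnF1 mutant, 3.7 and 4.2 RPKM in the ZnF4 mutant, and 2.6 and 3.5 RPKM in wild type. The ZnF4 libraries lay above the other 4, by little, while the ZnF1 and wild-type libraries overlapped. Against wild type, its log2 fold change was -0.34 in ZnF1 mutants (95% interval -0.85 to 0.17) and 0.34 in the ZnF4 mutant (95% interval -0.18 to 0.85), with adjusted p-values of 0.612 and 0.473 by limma. The T cell genes Cd3e, Cd3d and Cd3g, which code for chains of the T cell receptor complex, were each at 0.8 RPKM or less in all libraries, below Cd5, whereas Cd2 and Lck of the same marker list were above Cd5 in all of them. The part of T cells in the level of Cd5 was not tested.

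Spn encodes CD43, a sialylated surface protein of B1 cells, early B cell progenitors, T cells and myeloid cells. It was at 15.3 and 23.3 RPKM in the ZnF1 mutant, 12 and 15.1 RPKM in the ZnF4 mutant, and 17.6 and 14.7 RPKM in wild type. Each mutant overlapped wild type, and ZnF1 replicate 2, the library with the highest granulocyte and monocyte sum, was the highest; the part of those cells was not tested. Its change on the log2 scale was 0.23 in ZnF1 mutants (95% interval -0.29 to 0.74) and -0.25 in the ZnF4 mutant (95% interval -0.76 to 0.26), with adjusted p-values of 0.764 and 0.609 by limma. Without ZnF1 replicate 2 the ZnF1 value was -0.07. The other Spn transcript of the table (1478 bases) had close to the same ratios, 1.19 for the ZnF1 mutant and 0.841 for the ZnF4 mutant over wild type, against 1.2 and 0.839 for the one used.

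Zbtb32 encodes a zinc finger repressor of transcription that limits the responses of activated lymphocytes. Of the 10 genes it had the lowest mean in ZnF1 and wild-type cells, at 1.7 and 1.2 RPKM in the ZnF1 mutant, 3.2 and 5.1 RPKM in the ZnF4 mutant, and 2.7 and 1.5 RPKM in wild type. The ZnF4 libraries lay above the others, and the ZnF1 and wild-type libraries overlapped. On the log2 scale it differed from wild type by -0.39 in ZnF1 mutants (95% interval -1.13 to 0.36, adjusted p = 0.708 by limma) and 0.85 in the ZnF4 mutant (95% interval 0.10 to 1.59, adjusted p = 0.229 by limma). The direct comparison, ZnF1 over ZnF4, gave -1.23 (95% interval -1.98 to -0.49, adjusted p = 0.0775 by limma). At these levels a rounding step of 0.1 RPKM is a visible part of each value.

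Zcwpw1 encodes a reader of histone methylation best known from meiosis in the mouse testis. It was at 8.2 and 12.6 RPKM in the ZnF1 mutant, 5.9 and 8.7 RPKM in the ZnF4 mutant, and 8 and 11 RPKM in wild type. Replicate 2 was higher than replicate 1 in every genotype, and all 3 genotypes overlapped. Against wild type, its log2 fold change was 0.11 in ZnF1 mutants (95% interval -0.51 to 0.74) and -0.37 in the ZnF4 mutant (95% interval -0.99 to 0.26), with adjusted p-values of 0.924 and 0.525 by limma.

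Mfge8 encodes lactadherin, a secreted protein that links dying cells to phagocytes. It was at 9.5 RPKM in both ZnF1 libraries, at 7.3 and 7.0 RPKM in the ZnF4 mutant, and at 8.6 and 10.8 RPKM in wild type. The ZnF4 libraries were the lowest, and the ZnF1 libraries lay within the wild-type range. Its change on the log2 scale was -0.02 in ZnF1 mutants (95% interval -0.37 to 0.33) and -0.41 in the ZnF4 mutant (95% interval -0.76 to -0.05), with adjusted p-values of 0.98 and 0.226 by limma. A longer Mfge8 transcript with a further exon of 111 bases was at 0.5 RPKM or less in every library, so between 95.6% and 99% of the gene's RPKM lay in the shorter one.

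By genotype means the members fell into 4 orders. Cd36 and Cd9 were highest in the ZnF4 mutant and lowest in wild type, an order found in 15.4% of all tested genes. Cd1d1, Plac8, Cd5 and Zbtb32 were highest in the ZnF4 mutant and lowest in the ZnF1 mutant, as were 17.4% of all genes. Tm6sf1, Spn and Zcwpw1 had the reverse of that order, with 19.8% of all genes. Mfge8 was highest in wild type and lowest in the ZnF4 mutant, with 20% of all genes. Thus Cd36, Cd9, Cd1d1, Plac8, Cd5 and Zbtb32 had their highest mean in the ZnF4 mutant, and the remaining 4 had their lowest mean there.

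Libraries of the ZnF4 mutant and wild type did not overlap for 8 of the 10 members, against 50.4% of all tested genes, with 6 higher (23.1% of all genes) and 2 lower (27.2%). Those of the ZnF1 mutant and wild type did not overlap for 4 members, against 41.5%, with Cd36 and Tm6sf1 higher (21.1% of all genes) and Cd1d1 and Plac8 lower (20.3%). Between the mutants 8 did not overlap, against 46.8%, with 3 higher (25.8% of all genes) and 5 lower (21%) in the ZnF1 mutant. In the ZnF4 comparison 7 members had an unadjusted p under 0.05, as did 1800 of the 10322 tested genes, and of the 7, 5 did not pass after adjustment over all genes (Cd9, Cd1d1, Plac8, Zbtb32 and Mfge8).

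No further marginal zone gene was called higher in either mutant. Of 12 such genes, 11 were tested. By limma none passed in ZnF1 mutants, against 0.271% of all tested genes. In that comparison 5 had an unadjusted p under 0.05, as did 1232 of the 10322 tested genes. In the ZnF4 mutant 1 fell, against 1.41% of all tested genes, and 10 did not pass. Dtx1, a Notch target gene of marginal zone B cells, was at 18.3 and 13.8 RPKM in the ZnF1 mutant, 5.6 and 6.7 RPKM in the ZnF4 mutant, and 22.6 and 22.5 RPKM in wild type. Its log2 fold change in the ZnF4 mutant was -1.80 (SE 0.17, adjusted p = 0.00549 by limma), and the direct comparison, ZnF1 over ZnF4, gave 1.31 (adjusted p = 0.0078). The median log2 fold change of the 11 was -0.39 for ZnF1 and -0.36 for ZnF4 over wild type, where that of the 10 members was 0.05 and 0.34. Notch2, the receptor that marginal zone B cells need, was at 80.6 and 68.0 RPKM in the ZnF1 mutant, 42.7 and 46.8 RPKM in the ZnF4 mutant, and 76.2 and 59.4 RPKM in wild type, and its log2 fold change in the ZnF4 mutant, -0.58 (adjusted p = 0.113 by limma), did not pass. Cr2, the complement receptor CD21 of marginal zone and follicular B cells, was at 44.1 and 42.1 RPKM in the ZnF1 mutant, 25.2 and 38.6 RPKM in the ZnF4 mutant, and 24.7 and 23.1 RPKM in wild type (adjusted p = 0.163 and 0.369 by limma).

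Of 12 further B1 cell genes, 10 were tested. By limma none passed in ZnF1 mutants, against 0.271% of all tested genes. In that comparison 3 had an unadjusted p under 0.05, as did 1232 of the 10322 tested genes. In the ZnF4 mutant 1 fell, against 1.41% of all tested genes, and 9 did not pass. Bhlhe40, a basic helix-loop-helix repressor, was at 15.2 and 15.0 RPKM in the ZnF1 mutant, 7.5 and 8.4 RPKM in the ZnF4 mutant, and 19.8 and 21.6 RPKM in wild type. Its log2 fold change in the ZnF4 mutant was -1.33 (SE 0.13, adjusted p = 0.00549 by limma). Bhlhe41, its relative that B1a cells need, was at 7.8 and 7.4 RPKM in the ZnF1 mutant, 6.9 and 7.0 RPKM in the ZnF4 mutant, and 5.3 and 6.6 RPKM in wild type (adjusted p = 0.467 and 0.522 by limma). Median log2 fold changes of the 10 were 0.08 for ZnF1 and 0.19 for ZnF4 over wild type. Itgam, which granulocytes and monocytes express too, reached 44.4 RPKM in ZnF1 replicate 2, against 8 RPKM or less elsewhere.

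**Figure D4:**
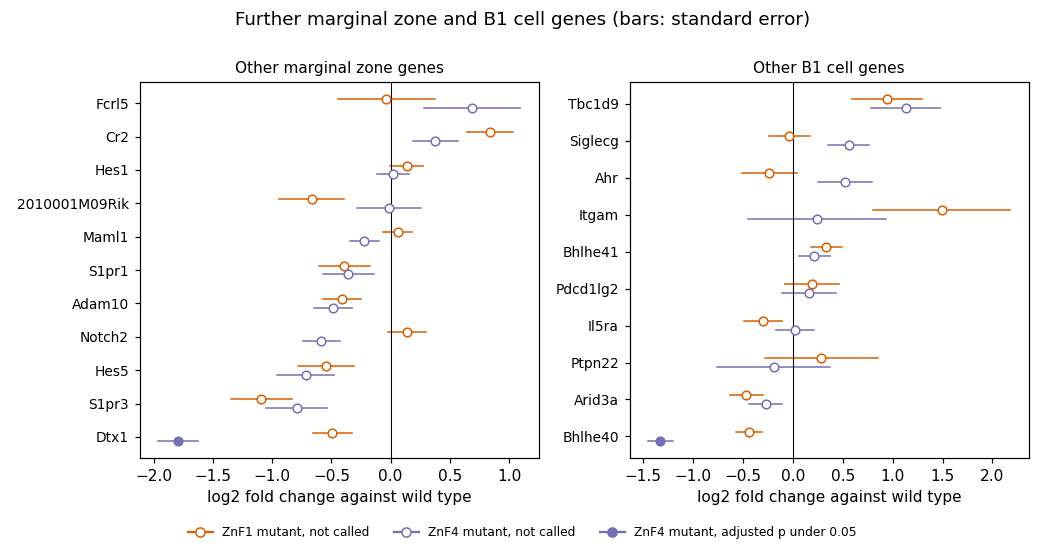
Log2 fold changes against wild type (points) with standard errors (bars) of 11 further marginal zone genes and 10 further B1 cell genes, in the ZnF1 mutant and the ZnF4 mutant, with filled points for called genes. Dtx1 at -1.80 and Bhlhe40 at -1.33, both in the ZnF4 mutant, are the only filled points.

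Among follicular B cell genes, 7 of 8 were tested and none passed by limma in any of the 3 comparisons. Of all tested genes, 0.271% passed for ZnF1 and 3.2% for ZnF4 over wild type, and 4.78% between the mutants. In each comparison 1 of the 7 had an unadjusted p under 0.05. Of the 10322 tested genes, 1232, 1800 and 2064 did, in the same order. Fcer2a, the low-affinity IgE receptor CD23 that marginal zone and B1 cells lack, was at 426.1 and 442.6 RPKM in the ZnF1 mutant, 194.9 and 383.5 RPKM in the ZnF4 mutant, and 252.5 and 229.0 RPKM in wild type. On the log2 scale it differed from wild type by 0.85 in ZnF1 mutants and 0.18 in the ZnF4 mutant (adjusted p = 0.311 and 0.796 by limma). Medians of the list were 0.27 for ZnF1 and -0.06 for ZnF4 over wild type.

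For the members with the widest range of genotype means, Cd36 and Zbtb32, the most alike genes were sought over the 6 libraries. Likeness was the root mean square difference of log2 values centred on each gene's mean. The 5 genes closest to Cd36 were Plekha8 (0.197), Lmo7 (0.216), Vpreb1 (0.221), Gpr34 (0.237) and Cyp27a1 (0.323). In the wild-type libraries Plekha8 was at 0.1 and 0.2 RPKM, Lmo7 at 0.2 and 0.4 RPKM and Gpr34 at 0.5 and 0.4 RPKM. These levels do not exceed the pseudocount of 0.5, which therefore shapes the likeness of these genes to Cd36. Vpreb1, of the surrogate light chain of early B cells, was at 6.1 and 4.2 RPKM in the ZnF1 mutant, 25.9 and 14.6 RPKM in the ZnF4 mutant, and 1.9 and 3.8 RPKM in wild type. The 5 closest to Zbtb32 were Evi2a (0.172), Amigo2 (0.172), Stau2 (0.190), Hs3st1 (0.192) and Zbtb38 (0.193), after passing over a clone name. As these were the nearest of 10322 genes over only 6 libraries, they are a description.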

How the data were processed

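The authors deposited RPKM values per RefSeq transcript. The tools TopHat and bedtools and the build mm9 appear, per the submitters' processing notes, with no order given. Tool versions, strand handling and the reads used for scaling are not given in the sources used here, so reads of overlapping antisense genes may be shared. The deposited values come in steps of 0.1. Whole reads could not be recovered: for transcripts of at most 150 bases, at most 40.7% of values fell on whole reads, so the depth is unknown and no counting interval is given. Of 26531 transcripts, the one with the highest mean stood for each gene, and genes with a mean of at least 1 RPKM were tested on log2(RPKM + 0.5) with limma 3.58.1 in R 4.3.3 (lmFit, eBayes with trend, 1 term per genotype, all 6 libraries, 3 residual degrees of freedom, two-sided, Benjamini-Hochberg). Fold changes on this scale understate those of low genes. The script was tested on simulated data. All 10 members are named; of other lists, up to 4 called genes; and for the 2 members of widest range, the 5 genes of smallest root mean square difference. Names of list genes given as values without a call were chosen after their values were seen. The members and lists were chosen with earlier results of these data known. Alternatives were pseudocounts of 0.1 and 1, no filter, the longest transcript, quantile normalization, fits of 2 genotypes, a replicate block, each library left out and, added after seeing the data, a term for sex. Promoters are RefSeq's; exons are from GENCODE M21 (GRCm38), used for structure only. 1 marker gene is not reported here.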

Additional observations from a re-analysis of the deposited data

Results flagged for a closer look

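The effects of the 2 mutations differed in a direct test for 3 members, against 4.78% of all tested genes. The log2 fold change of the ZnF1 over the ZnF4 mutant was -1.69 for Cd36, with means of 29.9 and 96.7 RPKM. It was -0.80 for Plac8 (269 and 471 RPKM) and 1.11 for Tm6sf1 (26.4 and 11.9 RPKM). For each of these genes the libraries of the mutants did not overlap, as for 46.8% of all tested genes. The call of Plac8 was lost without a filter on low values, in a fit of only the mutants, with a replicate block and with a term for sex. That of Cd36 was lost without a filter. Groups of 2 libraries are too small to look for single deviating values.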

How the results depend on the processing

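Of 414 fold changes of members under other settings, 378 kept direction and call, 23 lost the call, 6 gained it and 7 turned sign. Only members called in the main fit had a call to lose. These were 0 in the ZnF1 comparison, 2 in the ZnF4 comparison and 3 between the mutants. Most of the 378 were thus uncalled values that stayed uncalled, and their number does not measure how stable the calls were. Leaving out 1 library, limma called between 0 and 1 members in the ZnF1 comparison, 0 and 3 in the ZnF4 comparison and 0 and 3 between the mutants, and between 0 and 512, 0 and 591, and 0 and 814 of all genes (with 609 to 1916, 1117 to 2118 and 1474 to 2213 at an unadjusted p under 0.05). Fewer samples then estimate the spread. Sign turned for Cd9 between the mutants (range -1.05 to 0.0533) and, in the ZnF1 comparison, for Spn (-0.0701 to 0.521), Zcwpw1 (-0.18 to 0.41) and Mfge8 (-0.18 to 0.14). Without a filter on low values, 0, 189 and 309 genes and, between the mutants, 1 member were called (1597 at an unadjusted p under 0.05 in the ZnF1 comparison). Quantile normalization gave 13 genes in the ZnF1 comparison. Fits of only the compared genotypes gave 0, 594 and 249 genes by limma (1053 at an unadjusted p under 0.05 in the ZnF1 comparison). With the longest transcript, 1 member was called in the ZnF4 comparison, as Cd36 and Mfge8 were then not tested. A term for sex, added after seeing the data, gave 0 and 171 genes against wild type by limma (863 at an unadjusted p under 0.05 in the ZnF1 comparison), and turned Spn to -0.00225 and Zcwpw1 to -0.17 there. The cause of these moves was not tested. Deviations of same-numbered libraries correlated across genes with r = 0.28 (ZnF1 and wild type), -0.03 (ZnF4 and wild type) and 0.21 (between the mutants). In both mutants, replicate 2 was the library without Xist RNA. These values cannot settle whether the numbers pair libraries, and the labels state no pairing, so a replicate block was fitted only as an alternative. With a replicate block, 27, 327 and 529 genes and 0, 2 and 2 members were called, and Plac8 between the mutants was not (adjusted p = 0.051 by limma).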

Other observations

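Among plasma cell genes, Slamf7, a receptor of the SLAM family, was at 19.8 and 22.4 RPKM in the ZnF1 mutant and 42.0 and 45.9 RPKM in the ZnF4 mutant, against 29.4 and 28.9 RPKM in wild type. The ZnF1 libraries were below the ZnF4 libraries (log2 fold change -1.04, adjusted p = 0.0052 by limma). Plac8 had the same order of genotypes, as did 17.4% of all tested genes. For ZnF4 over wild type, 2 of the 5 tested plasma cell genes had a positive log2 fold change, with 0.58 for Slamf7. Sdc1, Irf4 and Xbp1 had the opposite sign, with -1.13, -0.21 and -0.19, and none of the 5 passed there. Sdc1, the plasma cell syndecan, fell in the ZnF1 mutant (log2 fold change -2.24, adjusted p = 0.0347 by limma). Its level there was 0.6 and 0.4 RPKM, near the pseudocount of 0.5, against 5.3 and 3.3 RPKM in wild type. The call was lost without a filter on low values, in a fit of only these genotypes and with a term for sex. Under each of these settings limma called 0 genes in the ZnF1 comparison. Among plasmacytoid dendritic cell genes, Bst2 was higher in ZnF1 mutants, at 75.3 and 59.9 RPKM, than in ZnF4 mutants, at 24.5 and 30 RPKM. The log2 fold change was 1.29 (adjusted p = 0.0112 by limma). Cox6a2 fell in the ZnF4 mutant (-2.49, adjusted p = 0.0353 by limma). It was at 0.9 and 0.8 RPKM there, near the pseudocount of 0.5, and at 3.9 and 12.5 RPKM in wild type, which lay far apart. Other genes of that list had the opposite sign: for ZnF4 over wild type, the log2 fold change was 0.71 for Irf8 and 0.49 for Tcf4 (adjusted p = 0.0754 and 0.0999), and for ZnF1 over ZnF4 it was -0.62 and -0.34 (adjusted p = 0.0826 and 0.186), none of which passed. Igj, the antibody J chain gene, was at 13.5 and 3.3 RPKM in the ZnF1 mutant, 71.9 and 65.2 RPKM in the ZnF4 mutant, and 413.8 and 1.1 RPKM in wild type. Cd9, which plasma cells also carry, was at 7.1 and 6.0 RPKM in those wild-type libraries. The part of plasma cells in the level of Cd9 was not tested.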
